A study of Arabidopsis thaliana with 12 samples.

Results

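The 43 genes described here are nuclear genes of Arabidopsis thaliana for the light-harvesting antenna proteins LHCA and LHCB and for the photosystem subunits PSA and PSB. They were taken by locus from the known families out of 33602 counted gene models, and all 43 passed the filter on low counts. Single genes were not picked by their measured values, but earlier results of these data were known when the set was chosen. The antenna holds 20 of them: 9 genes of the major light-harvesting complex II (LHCB1, LHCB2 and LHCB3), 5 genes of the minor antenna of photosystem II (LHCB4, LHCB5 and LHCB6) and 6 genes of the photosystem I antenna (LHCA). The core set holds the other 23, of which 12 are PSA genes of photosystem I and 11 are PSB genes of photosystem II. The core set is named for the gene families and includes peripheral proteins such as PSBS.

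Photosystem II splits water and photosystem I reduces ferredoxin, and both are built from plastid-encoded reaction-centre proteins and nuclear-encoded subunits that are imported into the chloroplast. LHCII trimers and the minor antenna proteins feed light energy to photosystem II, and LHCA proteins form a belt around photosystem I. In leaves these nuclear genes are among the most strongly transcribed, and their transcript levels are known to respond to light and to the state of the chloroplast.

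Total RNA was sequenced from 4 groups of 3 libraries. The groups are plants labelled as homozygotes of a DYW2 insertion mutant made by T-DNA (dyw2 HO), its heterozygotes (dyw2 HE), homozygotes of a T-DNA mutant of NUWA, or OTP100 (nuwa HO), and heterozygotes of that mutant (nuwa HE). DYW2 and NUWA are pentatricopeptide repeat proteins with a part in the editing of organellar transcripts. By these labels the controls of each mutant carry the same insertion on 1 chromosome copy. The deposited files of the HE samples, however, are named as wild type, so the control genotype behind every HE value and fold change is uncertain. The labels were followed here. Every sample combined flower bud, rosette and stem at Boyes stage 5.10 from plants grown on soil at 18 °C by night and 20 °C by day with 8 h of dark and 16 h of light. The labels give the 3 libraries of a group as biological replicates. The allele names, any rescuing transgene and the number of plants in a sample were not stated in the labels. How far the p-values measure spread between plants is therefore not known.

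The libraries held 13329334 to 97804029 counts, and the 3 dyw2 HO libraries were the shallowest. The title and the genotype entry disagree in 2 libraries, since dyw2 HO replicate 2 has a nuwa homozygous genotype entry and nuwa HO replicate 3 a dyw2 homozygous one. The titles were followed here, and the main counts, medians and paralog ratios were also computed without these 2 libraries. The targeted transcripts did not check the labels. DYW2 averaged 10.3 ± 0.762 CPM (counts scaled to library size) in dyw2 HO and 6.44 ± 0.779 CPM in dyw2 HE, and NUWA averaged 1.12 ± 0.314 CPM in nuwa HO and 0.639 ± 0.278 CPM in nuwa HE (SD, n = 3 each). Both transcripts were called higher in dyw2 (edgeR adjusted p under 0.05), with log2 fold changes of 0.67 and 2.02, so the rise there was not limited to the targeted gene. Of all genes tested, 30.1% were called higher in dyw2. In nuwa the 2 changes were 0.81 and 1.04, and 1 was called higher, where 2.18% of all genes tested were called. Where in these transcripts the insertions lie was not analysed here, so groups are called by their labels. CPM values are scaled by TMM factors over all nuclear and organellar genes.

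The tissue label includes flower buds, and 9 floral organ genes were summed as a check. Their summed level was 5.95 to 11.05 CPM in dyw2 HO and 45.5 to 113 CPM in dyw2 HE. In the nuwa libraries it was 11.2, 4.16 and 64.9 CPM in HO replicates 1 to 3, and 73.7 to 115 CPM in HE. The 5 anther and pollen genes summed to at most 0.0910 CPM in dyw2 HO and 4.76 to 43.3 CPM in dyw2 HE, with 4 or 5 of the 5 at 0 in each dyw2 HO library. The same sum was 0, 0.0671 and 17.2 CPM in nuwa HO and 17.4 to 29.5 CPM in nuwa HE. The 8 secondary cell wall genes of the stem summed to 5.95 to 10.9 CPM in dyw2 HO, 12.6 to 24.9 CPM in dyw2 HE, 10.03 to 21.6 CPM in nuwa HO and 8.84 to 21.8 CPM in nuwa HE. Fewer cells of a type and less RNA per cell cannot be told apart in such mixed samples.

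The 43 genes together took up 3.15%, 4.56% and 5.14% of the counts on nuclear genes in the dyw2 HO libraries. They took up 16.9%, 19.8% and 17.1% in dyw2 HE. All 3 dyw2 HO libraries thus lay below all 3 dyw2 HE libraries, with means of 4.28% ± 1.02 in HO and 17.9% ± 1.64 in HE (SD, n = 3 each). In the nuwa libraries the share was 19.8%, 18.4% and 17.3% in HO and 17.8%, 18.4% and 19.4% in HE, and these groups overlapped. The shares have no TMM scaling, so their ratio differs from the fold changes given next.

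**Figure D1:**
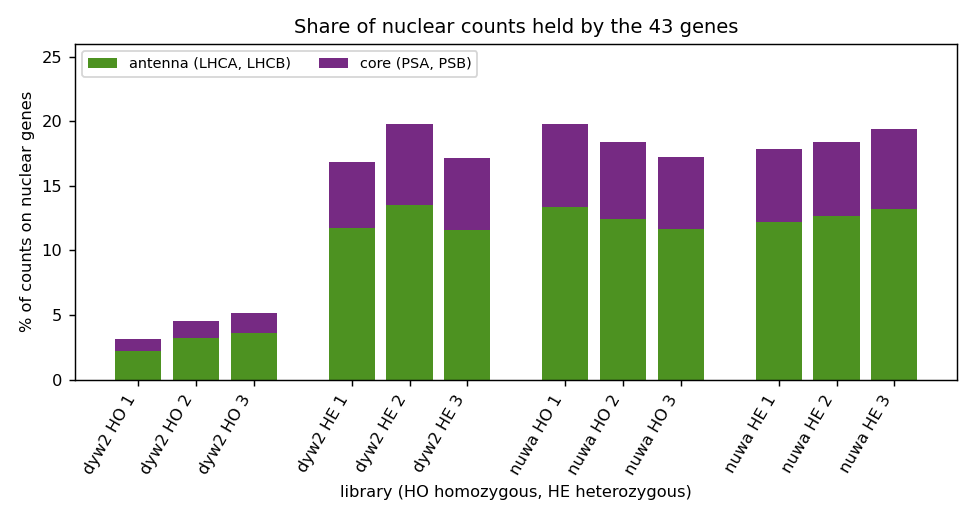
Share of all counts on nuclear genes (y axis, percent) held by the 20 antenna genes (green) and the 23 core genes (purple) in each of the 12 libraries (x axis). The 3 dyw2 homozygous libraries stand at 3.15% to 5.14%, and the other 9 libraries at 16.9% to 19.8%.

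In dyw2 HO all 43 genes fell relative to dyw2 HE (edgeR quasi-likelihood test, adjusted p under 0.05), while 32.8% of the 21213 genes tested were called lower and 30.1% higher. The median log2 fold change of the 43 genes was -2.73, a level 6.62-fold lower, against a median of -0.05 over all genes tested. The changes ran from -4.96 for LHCB2.3 to -1.51 for PSAD1, with edgeR adjusted p-values between 1.05e-06 and 0.000249. The count was also 43 without both disputed libraries, where the median was -2.81, and 43 with the floral score as a covariate, where it was -2.93. That score, the mean log2 CPM of the 9 floral genes, was -1.28 to -0.29 in dyw2 HO and 2.11 to 3.33 in dyw2 HE. Its slope rests on spread within groups, which was widest in nuwa HO, where replicate 3 has a disputed label. The covariate fit therefore cannot tell floral content from genotype. With groups taken from the genotype entries in place of the titles, edgeR called none and gave none an unadjusted p under 0.05, the median was -1.33 and all 43 values were below 0.

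**Figure D2:**
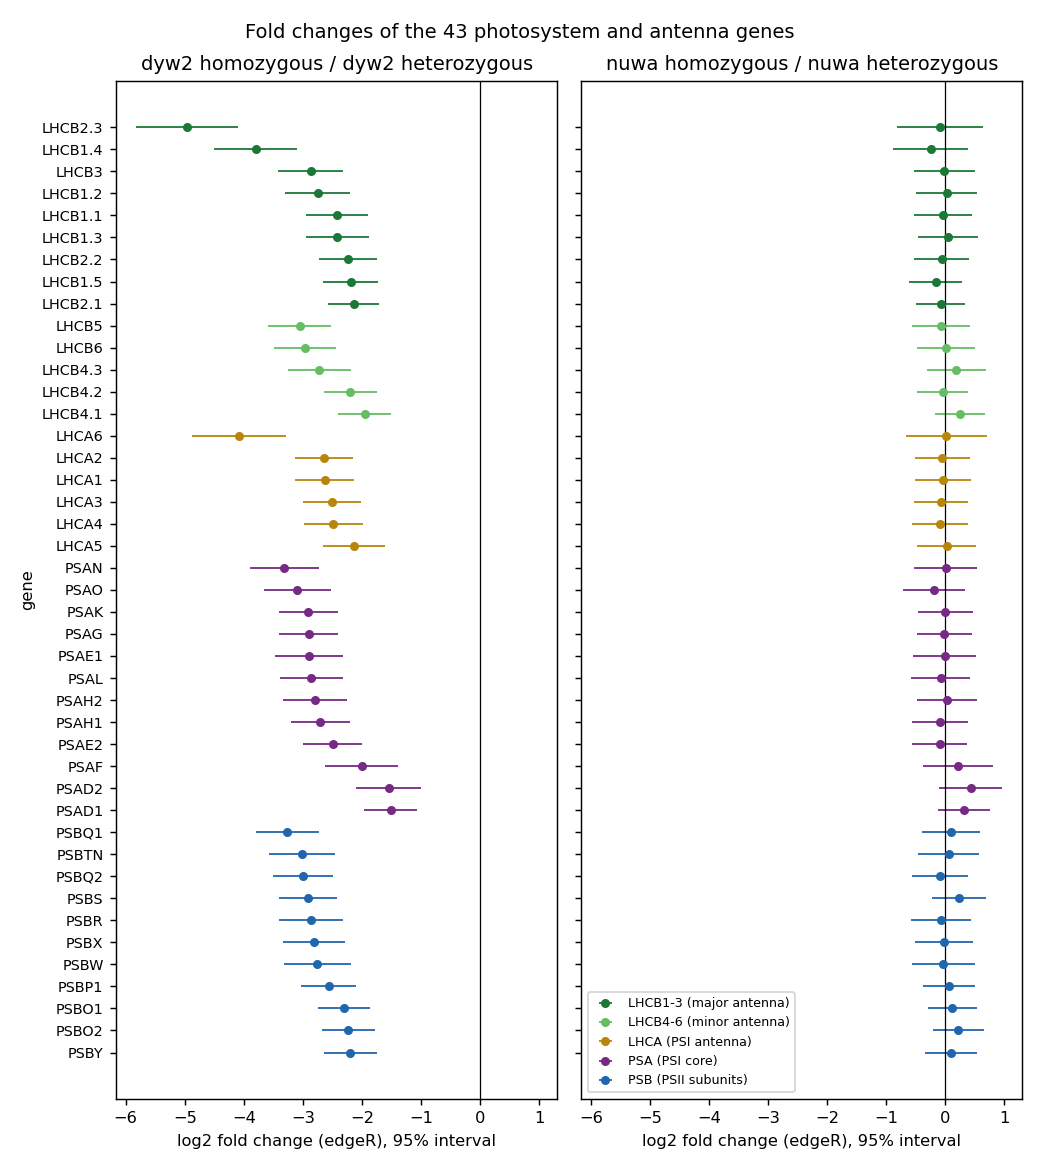
Log2 fold change (x axis) of each of the 43 genes in dyw2 homozygous against heterozygous plants (left) and nuwa homozygous against heterozygous plants (right), from edgeR over 3 libraries per group. Points are estimates, bars are 95% intervals and colours are gene families. All intervals for dyw2 end below 0, and all for nuwa include 0.

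LHCB1, LHCB2 and LHCB3 encode the chlorophyll a/b proteins of the LHCII trimers, and their 9 genes had a median change of -2.42 in dyw2. LHCB1.3 (AT1G29930, chr1:10477885-10479114 in TAIR10.1) had the most counts of the family. It stood at 1074, 1646 and 1948 CPM in dyw2 HO, against 7759, 9905 and 7265 CPM in dyw2 HE, and fell by 2.42 ± 0.25 on the log2 scale (SE). The groups did not overlap, and the fall was 5.34-fold (edgeR adjusted p = 7.80e-06). In the nuwa libraries it stood at 10721, 8872 and 7788 CPM in HO, against 8376, 9071 and 9079 CPM in HE, which overlapped.

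LHCB2.1 (AT2G05100), an LHCII protein that is a substrate of state transition phosphorylation, changed least among the trimer genes. It had 400.6, 584 and 613 CPM in dyw2 HO, against 2078, 2723 and 2225 CPM in dyw2 HE, a 4.40-fold fall. Its nuwa values were 2613, 2457 and 2115 CPM in HO and 2476, 2452 and 2642 CPM in HE. LHCB3 (AT5G54270), a trimer subunit found in the inner antenna, had 459, 733 and 801 CPM in dyw2 HO, against 4014, 5815 and 4723 CPM in dyw2 HE. This was a 7.30-fold fall, and no dyw2 HO library reached a dyw2 HE one. LHCB3 had 6544, 5077 and 4428 CPM in nuwa HO and 5151, 5564 and 5505 CPM in nuwa HE, again with overlap.

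LHCB2.3 (AT3G27690, chr3:10255906-10257489) had the largest change of the 43 genes. It stood at 13.9, 17.4 and 35.6 CPM in dyw2 HO, against 647, 839 and 598 CPM in dyw2 HE. Its log2 fold change was -4.96 ± 0.39 (SE), 31.2-fold lower, with an edgeR adjusted p of 1.52e-06. In nuwa it had 996, 857 and 551 CPM in HO and 969.5, 665 and 925 CPM in HE. LHCB1.4 (AT2G34430) had 61.8, 65.3 and 129 CPM in dyw2 HO, against 1155, 1503 and 910.5 CPM in dyw2 HE, a 13.9-fold fall. In both genes dyw2 HO replicate 3 was the highest of its group and still far below every dyw2 HE library.

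LHCB4 (CP29), LHCB5 (CP26) and LHCB6 (CP24) are monomeric proteins that link the trimers to the photosystem II core, and their 5 genes had a median change of -2.73. LHCB5 (AT4G10340) had 453, 688 and 768 CPM in dyw2 HO, against 4608, 6107 and 5135 CPM in dyw2 HE, a log2 fold change of -3.05 ± 0.24 (SE). LHCB4.1 (AT5G01530) changed least of the antenna, with 289.6, 387 and 450.4 CPM in dyw2 HO, against 1421, 1684 and 1263 CPM in dyw2 HE, a 3.88-fold fall. LHCB6 fell 7.84-fold, LHCB4.2 fell 4.58-fold and LHCB4.3 fell 6.62-fold. In nuwa, LHCB5 had 6715, 5768 and 4449 CPM in HO and 5958, 5866 and 5835 CPM in HE. LHCB4.1 had 1636, 1894 and 1609 CPM in nuwa HO and 1353, 1261 and 1700.3 CPM in nuwa HE.

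LHCA1 to LHCA4 form the photosystem I antenna belt, and their 4 changes in dyw2 lay close together, between -2.64 and -2.48. LHCA4 (AT3G47470), which holds long-wavelength chlorophylls, had 687, 975.2 and 1061 CPM in dyw2 HO, against 4355, 5925 and 4954 CPM in dyw2 HE. Its fall was 5.59-fold, and its nuwa values were 6820, 5463 and 4461 CPM in HO and 5642, 6107 and 6103 CPM in HE. LHCA5 and LHCA6 are low-level members that link photosystem I to the chloroplast NDH complex. LHCA5 fell 4.38-fold. LHCA6 (AT1G19150) had 1.35, 1.66 and 4.07 CPM in dyw2 HO, against 36.2, 47.1 and 36.2 CPM in dyw2 HE, a 17.0-fold fall. Replicate 3 was the highest of the LHCA6 values in dyw2 HO, and without it the fall was 26.3-fold.

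The 12 PSA genes of photosystem I had a median change of -2.83 in dyw2. PSAL (AT4G12800), which lies where LHCII can dock, had the most counts, with 154, 217 and 250.3 CPM in dyw2 HO, against 1229, 1808 and 1467 CPM in dyw2 HE. It fell 7.25-fold, and in nuwa it had 2113, 1643 and 1299 CPM in HO and 1716, 1783 and 1822 CPM in HE, which overlapped. PSAN (AT5G64040), a lumenal subunit on the plastocyanin side, had 99.4, 149 and 183 CPM in dyw2 HO, against 1171, 1748 and 1364 CPM in dyw2 HE. Its log2 fold change of -3.31 ± 0.27 (SE) was the largest of the core set, 9.93-fold lower. In nuwa PSAN had 2001, 1531 and 1218 CPM in HO and 1577, 1543 and 1598 CPM in HE. PSAO, also on the LHCII side, fell 8.56-fold, and PSAK and PSAG, which contact the antenna belt, fell 7.49-fold each.

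The smallest falls of the 43 genes were in PSAD1 and PSAD2, which encode the stromal subunit that binds ferredoxin. PSAD1 (AT4G02770) had 94.8, 106 and 140.0 CPM in dyw2 HO, against 336, 354 and 281 CPM in dyw2 HE, a log2 fold change of -1.51 ± 0.21 (SE). PSAD2 (AT1G03130) had 69.4, 95.5 and 106 CPM in dyw2 HO, against 280.0, 299 and 212 CPM in dyw2 HE, a log2 fold change of -1.55 ± 0.25 (SE). Both pairs of groups were apart, though by less than for the other genes shown. PSAF, the docking subunit for plastocyanin, fell 4.01-fold. In nuwa, PSAD2 had 239, 342 and 351 CPM in HO and 215, 171 and 304 CPM in HE, the largest positive change of the 43 genes at 0.43 (95% interval -0.10 to 0.97, not called). PSAD1 had 343, 419 and 380.4 CPM in nuwa HO and 307, 231 and 379 CPM in nuwa HE.

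The 11 PSB genes of photosystem II had a median change of -2.81 in dyw2. PSBR (AT1G79040), a subunit tied to the oxygen-evolving complex, had the most counts, with 287, 439 and 455 CPM in dyw2 HO, against 2353, 3361 and 2852 CPM in dyw2 HE. It fell 7.25-fold, and in nuwa it had 4027, 3041 and 2473 CPM in HO and 3177, 3519.7 and 3326 CPM in HE. Among the extrinsic proteins that shield the water-splitting site, PSBQ1 fell 9.62-fold, PSBQ2 7.99-fold, PSBP1 5.92-fold, PSBO1 4.95-fold and PSBO2 4.69-fold. PSBS, the protein of energy-dependent quenching, fell 7.53-fold. The small subunits PSBTN, PSBX, PSBW and PSBY fell 8.10-fold, 7.01-fold, 6.76-fold and 4.58-fold.

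The median change in dyw2 was -2.57 for the antenna genes and -2.81 for the core genes, with overlapping ranges of -4.96 to -1.95 for the antenna and -3.31 to -1.51 for the core. Counts on antenna genes were 2.35, 2.47 and 2.40 times those on core genes in dyw2 HO, against 2.29, 2.14 and 2.08 times in dyw2 HE. All 3 dyw2 HO libraries had the higher ratio, and the means were 2.41 ± 0.06 in HO and 2.17 ± 0.11 in HE (SD, n = 3 each). In nuwa the ratio was 2.08, 2.08 and 2.101 in HO, against 2.19, 2.22 and 2.14 in HE, so all 3 nuwa HO libraries had the lower ratio, with means of 2.09 ± 0.01 in HO and 2.18 ± 0.04 in HE (SD, n = 3 each). The difference between antenna and core was not tested, since the score is made of the chosen genes. Within the antenna, the medians in dyw2 were -2.42 for the 9 trimer genes, -2.73 for the 5 minor antenna genes and -2.57 for the 6 LHCA genes, and their ranges overlapped.

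In nuwa HO none of the 43 genes was called relative to nuwa HE, where 2.18% of all genes tested were called. None had an unadjusted edgeR p under 0.05, and DESeq2 called none. The median change was -0.01, with 20 genes above 0 and 23 below, and the single values ran from -0.25 for LHCB1.4 to 0.43 for PSAD2. All 95% intervals lay between -0.87 and 0.97 on the log2 scale. Medians were -0.04 for the antenna and 0.01 for the core. Without nuwa HO replicate 3, the library with a disputed label and a floral sum of 64.9 CPM, none was called, the median was 0.12 and 4 genes were below 0. The number below 0 was 33 without nuwa HO replicate 1, 15 without dyw2 HE replicate 1 and 15 with organellar genes left out, so the signs depend on single libraries and on scaling. With the floral score as a covariate none was called, 35 were below 0 and the median was -0.28. The score also separated the nuwa groups, at -2.08 to 2.54 in HO and 2.797 to 3.385 in HE, so the same limit holds. With groups from the genotype entries none was called, all 43 were below 0 and the median was -0.38. A p that misses the threshold does not show that the levels were equal.

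The changes in dyw2 and nuwa were set against each other in a contrast of the difference, for which the mutants share no library. All 43 genes had a more negative change in dyw2 than in nuwa, while 21.7% of all genes tested were called in that direction. The median difference was -2.73, and the single values ran from -4.87 for LHCB2.3 to -1.83 for PSAD1. Without both disputed libraries all 43 were called and the median was -2.92. With groups from the genotype entries none was called, and the median was -0.94. Between the dyw2 HE and nuwa HE groups none of the 43 genes was called by edgeR, none had an unadjusted p under 0.05, and DESeq2 called none, with 0.132% of all genes tested called. The median of dyw2 HE over nuwa HE was -0.17, and 36 of the 43 values were below 0.

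Each library was also set against the mean of the 6 HE libraries. The median over the 43 genes was -3.23, -2.69 and -2.57 in dyw2 HO replicates 1 to 3, and 0.30, 0.06 and -0.23 in nuwa HO replicates 1 to 3. The HE libraries lay between -0.25 and 0.19, but they make up the mean, so their nearness to 0 is partly built in. The library dyw2 HO replicate 2, whose label is disputed, lay between the other 2 of its titled group. Floral markers differed within nuwa HO: replicates 1 and 2 had mean floral log2 CPM of -1.46 and -2.08, against 2.54 in replicate 3. In dyw2 HO that mean was -1.28, -0.61 and -0.29. The floral sum was 11.2 and 4.16 CPM in nuwa HO replicates 1 and 2, against 5.95 to 11.05 CPM in dyw2 HO, and the 43 genes held 19.8% and 18.4% of nuclear counts in these nuwa libraries, against 3.15% to 5.14% in dyw2 HO. The part of flower bud, anther and stem tissue in the fall was not tested.

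**Figure D3:**
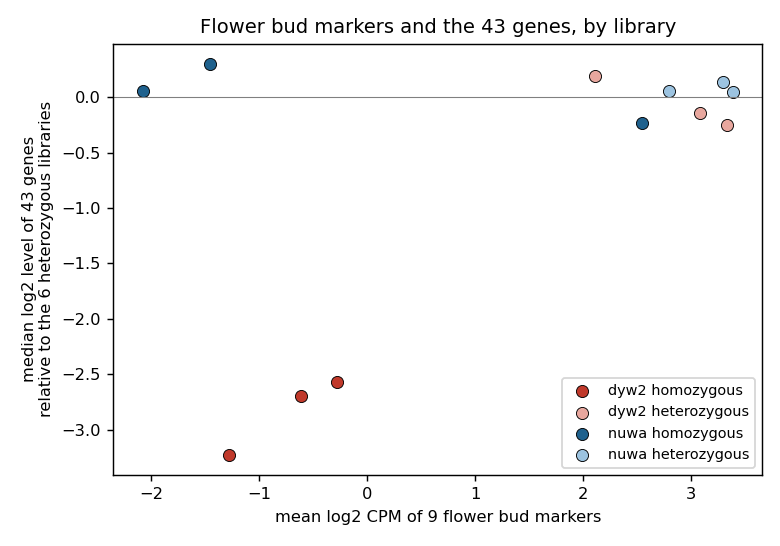
Median log2 level of the 43 genes relative to the mean of the 6 heterozygous libraries (y axis) against the mean log2 CPM of 9 flower bud markers (x axis), 1 point per library. The 3 dyw2 homozygous libraries lie at -3.23 to -2.57 on the y axis, and the 2 nuwa homozygous libraries with marker means of -2.08 and -1.46 lie at 0.06 and 0.30.

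Several subunits are encoded by paralogs, and the ratio of their counts within a library does not depend on scaling. Of 13 such pairs, the largest change in dyw2 was in LHCB2.2 over LHCB2.3. Its log2 ratio was 3.96, 4.32 and 3.38 in dyw2 HO, against 1.09, 1.07 and 1.07 in dyw2 HE, a difference of 2.81 with no overlap. LHCB2.2 (AT2G05070) itself had 216, 346 and 371 CPM in dyw2 HO, against 1378, 1764 and 1252 CPM in dyw2 HE. In nuwa it had 1644, 1512 and 1430.3 CPM in HO and 1511, 1473 and 1795 CPM in HE, and the ratio to LHCB2.3 differed by 0.06.

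LHCB1.4 over LHCB1.5 gave log2 ratios of -4.08, -4.55 and -3.57 in dyw2 HO, against -2.23, -2.22 and -2.78 in dyw2 HE, a difference of -1.65. The less abundant copy thus held a smaller part of the pair in every dyw2 HO library. LHCA1 over LHCA6 gave 7.57, 7.63 and 6.83 in dyw2 HO, against 5.87, 5.74 and 5.73 in dyw2 HE, a difference of 1.57. In nuwa these 2 ratios differed by -0.09 and -0.03. Without both disputed libraries the dyw2 differences were 2.59 for LHCB2.2 over LHCB2.3, -1.41 for LHCB1.4 over LHCB1.5 and 1.42 for LHCA1 over LHCA6. LHCB4.1 over LHCB4.3 differed by 0.78 in dyw2 without overlap, with 5.39 ± 0.36 in HO and 4.61 ± 0.23 in HE (SD, n = 3 each).

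The other pairs went in both directions. PSBQ1 over PSBQ2 differed by -0.27 and LHCB4.1 over LHCB4.2 by 0.24 in dyw2, both without overlap, so PSBQ1, the less abundant of its pair, and LHCB4.2, which is near LHCB4.1 in counts, had the larger falls. PSAH1 over PSAH2 differed by 0.11 without overlap, with the larger fall in the abundant PSAH2. PSAE1 over PSAE2 differed by -0.41 in dyw2 and LHCA1 over LHCA5 by -0.51, so PSAE1 and LHCA1, the abundant copies, had the larger falls. The nuwa differences were 0.19 for PSBQ1 over PSBQ2, 0.30 for LHCB4.1 over LHCB4.2 and -0.03 for LHCA1 over LHCA5, all with overlap. They were -0.12 for PSAH1 over PSAH2 and 0.08 for PSAE1 over PSAE2, both without overlap. In nuwa, PSAH1 over PSAH2 and PSAE1 over PSAE2 each had p = 0.1 by the exact permutation test and an adjusted p of 0.371. Neither ratio was called, and groups of 3 libraries without overlap do not by themselves establish a shift. PSAD1 over PSAD2 differed by 0.03, PSBO1 over PSBO2 by -0.08, LHCB2.1 over LHCB2.2 by 0.11 and LHCB1.1 over LHCB1.3 by -0.01, all with overlap between the groups. With 3 libraries against 3, an exact two-sided permutation test cannot go below p = 0.1, the value of every pair in dyw2 whose groups did not overlap, and the smallest adjusted p over the 13 pairs was 0.144. Over both mutants together, permuted within each, the smallest adjusted p of the exact test was 0.0975, for LHCB1.4 over LHCB1.5 and LHCB4.1 over LHCB4.2.

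**Figure D4:**
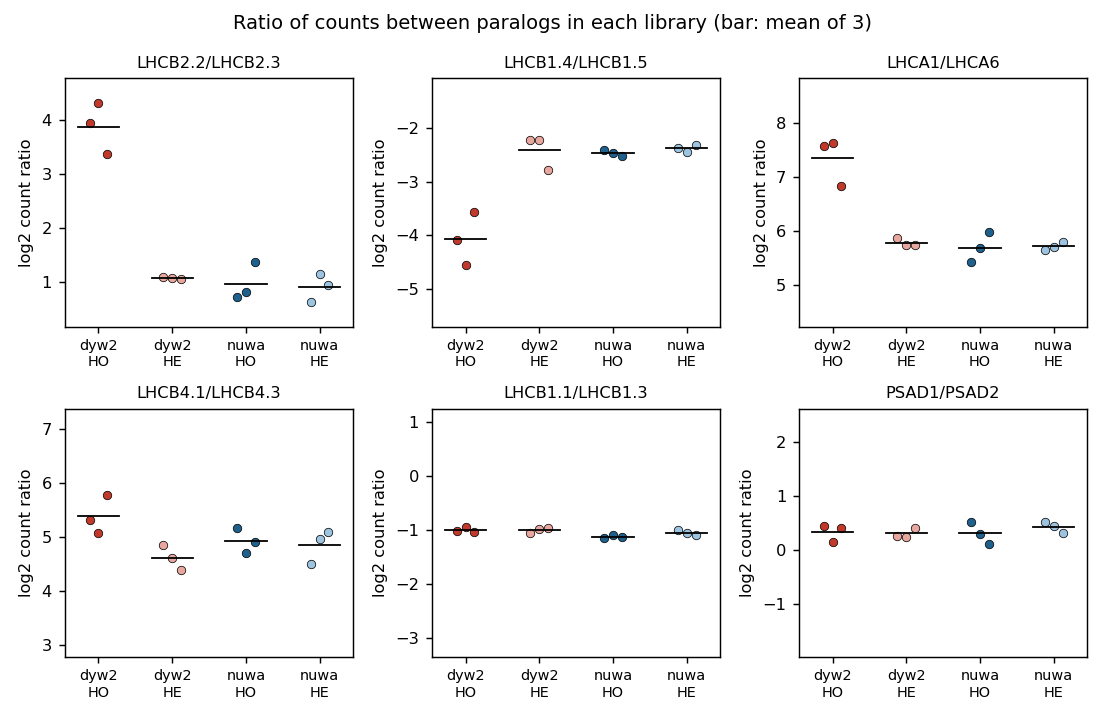
Log2 ratio of counts between 2 paralogs (y axis; every panel spans the same range) in each library of the 4 groups (x axis); bars are means of 3. In the first 3 panels the dyw2 homozygous libraries stand apart by 2.81, -1.65 and 1.57, and in the panels for LHCB1.1 over LHCB1.3 and PSAD1 over PSAD2 all groups overlap in dyw2.

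Near-identical copies limit these values, since reads with equally good placements had been removed before counting, 6.01% of mapped reads in dyw2 HO and 2.98% in dyw2 HE on average. The coding sequences of LHCB1.1, LHCB1.2 and LHCB1.3 are 95.7% to 96.4% identical, those of LHCB2.1 and LHCB2.2 96.6% and those of LHCB1.4 and LHCB1.5 91.4%. The longest shared run was 152 bases for LHCB2.1 and LHCB2.2 and 122 bases for LHCB1.4 and LHCB1.5. Among LHCB1.1, LHCB1.2 and LHCB1.3 it was 74 to 119 bases. Levels of these genes, and the ratios between them, are therefore uncertain. LHCB2.2 and LHCB2.3 are 84.4% identical with a longest shared run of 38 bases, and LHCA1 and LHCA6 are 50.1% identical. LHCB1.5 and LHCB1.4 lie head to head on chromosome 2 with 1038 bases between them, and LHCB1.1 and LHCB1.3 lie head to head on chromosome 1 with 1915 bases between them. The labels do not state whether strand was used in counting.

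The 250 bases before the annotated start of each gene were read from the TAIR10.1 genome. They are shown for the 3 pairs whose ratio changed most, so that the paralogs can be set side by side. Sequences run 5′ to 3′ on the gene's strand, and capitals mark matches on either strand to GATAAG (I-box core), CACGTG (G-box core) or CCAATC.
LHCB2.2 (chr2:1800473-1800722, minus strand): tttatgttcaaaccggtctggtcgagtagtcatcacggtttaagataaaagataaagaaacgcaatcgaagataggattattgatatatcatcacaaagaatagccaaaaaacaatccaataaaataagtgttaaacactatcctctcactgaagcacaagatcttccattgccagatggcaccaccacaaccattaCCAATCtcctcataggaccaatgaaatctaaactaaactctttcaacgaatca
LHCB2.3 (chr3:10255656-10255905, plus strand): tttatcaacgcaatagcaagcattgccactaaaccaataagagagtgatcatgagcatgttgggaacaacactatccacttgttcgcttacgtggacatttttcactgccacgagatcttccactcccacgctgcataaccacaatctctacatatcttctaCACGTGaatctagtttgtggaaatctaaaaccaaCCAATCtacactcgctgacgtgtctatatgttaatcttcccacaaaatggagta
LHCB1.4 (chr2:14524357-14524606, plus strand): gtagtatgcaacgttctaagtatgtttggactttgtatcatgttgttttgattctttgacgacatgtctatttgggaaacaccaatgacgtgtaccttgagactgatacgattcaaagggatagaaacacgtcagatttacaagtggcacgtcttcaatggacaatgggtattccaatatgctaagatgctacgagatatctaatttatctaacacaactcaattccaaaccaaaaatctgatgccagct
LHCB1.5 (chr2:14523569-14523818, minus strand): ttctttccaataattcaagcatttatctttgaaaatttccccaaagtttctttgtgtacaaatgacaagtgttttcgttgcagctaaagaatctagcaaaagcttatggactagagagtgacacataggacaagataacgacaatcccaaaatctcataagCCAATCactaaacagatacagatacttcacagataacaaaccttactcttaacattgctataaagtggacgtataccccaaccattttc
LHCA1 (chr3:20341177-20341426, minus strand): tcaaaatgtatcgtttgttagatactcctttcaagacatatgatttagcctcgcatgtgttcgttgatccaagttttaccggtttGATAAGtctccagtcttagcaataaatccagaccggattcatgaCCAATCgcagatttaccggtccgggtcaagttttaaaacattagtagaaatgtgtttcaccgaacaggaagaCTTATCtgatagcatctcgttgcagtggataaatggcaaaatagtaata
LHCA6 (chr1:6612380-6612629, plus strand): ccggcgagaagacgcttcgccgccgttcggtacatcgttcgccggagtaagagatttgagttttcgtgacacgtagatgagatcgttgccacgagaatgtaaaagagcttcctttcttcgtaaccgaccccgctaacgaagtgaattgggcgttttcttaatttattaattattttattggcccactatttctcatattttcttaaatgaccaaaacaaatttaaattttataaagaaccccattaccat

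LHCB2.3, the gene with the largest fall, holds a CACGTG and a CCAATC in this window, and LHCB2.2 holds a CCAATC only. LHCB1.5 holds a CCAATC and LHCB1.4 none of the 3 motifs. LHCA1 holds 2 matches to GATAAG and a CCAATC, and LHCA6 none. Over all 43 windows, CCAATC was found in 11, of which 10 were among the 20 antenna genes and 1 among the 23 core genes, against 10.2% of 27437 gene windows of the same length. GATAAG was found in 9 of the 43 windows, 4 antenna and 5 core, against 12.3% of all windows. CACGTG was likewise found in 9, 4 antenna and 5 core, against 6.49% of all windows. The letters were searched on both strands, overlapping matches were all kept, and a match is a description of the sequence only.

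Levels were compared between genes as CPM per kilobase. LHCB1.3 was highest in each of the 4 groups, at 1491 ± 425 in dyw2 HO, 7959.5 ± 1344 in dyw2 HE, 8742 ± 1420.5 in nuwa HO and 8469 ± 387 in nuwa HE (SD, n = 3 each). LHCB1.5 came next, at 1312 ± 271 in dyw2 HO, where its range overlapped that of LHCB1.3, and 5968 ± 768 in dyw2 HE. LHCA5, LHCA6 and LHCB4.3 were the lowest 3 in all groups. The highest level was 659.5-fold the lowest in dyw2 HO and 208-fold in dyw2 HE. Among the 43 genes LHCB2.3 ranked 40th in dyw2 HO and 34th in dyw2 HE, LHCB1.4 ranked 37th and 29th in the same groups, and LHCB4.1 ranked 16th and 28th. Across the 43 genes, which share libraries, the Spearman correlation between level in nuwa HE and change in dyw2 was -0.11.

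Other genes of the light reactions, from lists made with earlier results of these data known, were read from the same fit. Over all genes tested, 32.8% were called lower and 30.1% higher in dyw2, and 2.18% were called in nuwa. These shares apply to each list below. Of 15 nuclear genes of thylakoid electron transport and the ATP synthase, 13 fell in dyw2 and 2 were not called, with a median of -2.49. PETC, the Rieske protein of the cytochrome b6f complex, averaged 73.6 ± 18.1 CPM in dyw2 HO and 578 ± 84.4 CPM in dyw2 HE. PETE2, a plastocyanin, fell 7.11-fold, and FNR2, a ferredoxin-NADP reductase, fell 6.96-fold. None of the 15 was called in nuwa by edgeR or DESeq2, with 0 at an unadjusted p under 0.05. FD1, a ferredoxin, and ATPD, an ATP synthase subunit, had the smallest p-values with changes of 0.34 and 0.30.

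Of 12 further photosystem and LHC-like genes, 10 fell and 2 rose in dyw2. CURT1B, which bends thylakoid membranes at grana margins, fell 9.96-fold, the PsbP-like PPL1 9.60-fold and the one-helix protein OHP1 5.61-fold. The 2 that rose were early light-induced proteins, LHC relatives known from light stress. ELIP1 averaged 38.5 ± 8.46 CPM in dyw2 HO and 10.2 ± 2.301 CPM in dyw2 HE, 3.75-fold higher, and ELIP2 averaged 6.75 ± 2.56 CPM in dyw2 HO and 2.25 ± 0.237 CPM in dyw2 HE (SD, n = 3 each). The ELIP2 call in dyw2 was lost with the floral score as a covariate (edgeR adjusted p = 0.307). ELIP2 was the only one of the 12 called in nuwa, at 8.61 ± 5.96 CPM in HO and 2.34 ± 0.561 CPM in HE, with an edgeR adjusted p of 0.0490. That call was lost in 14 of 20 alternative settings, and over the 20 the adjusted p ranged from 0.00077 to 0.549, and the fold was 2.25 without nuwa HO replicate 2, against 3.67 with it.

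The 7 genes for insertion and phosphorylation of antenna proteins all fell in dyw2, by a median of 1.04 on the log2 scale. ALB3, the membrane insertase for LHC proteins, fell 3.58-fold, the signal recognition particle receptor CPFTSY 2.14-fold and the kinase STN8 2.101-fold. None was called in nuwa by edgeR or DESeq2, with 0 at an unadjusted p under 0.05, and CPSRP54 and STN8 had changes of 0.45 and 0.25. Of 6 regulators, 3 fell and 3 rose in dyw2, where 32.8% of all genes tested were called lower and 30.1% higher, so calls in both directions were common. GLK2 and GLK1, transcription factors that activate photosynthesis genes, fell 2.89-fold and 1.38-fold, and the GATA factor GNC fell 2.13-fold. Its close relative CGA1 rose 2.53-fold, HY5, a factor of light signalling, rose 1.95-fold, and GUN1, a plastid protein of signalling to the nucleus, rose 1.69-fold. None of the 6 was called in nuwa, where CGA1 had a change of 0.68 and GUN1 of 0.64. In nuwa 3 of the 6 had an unadjusted edgeR p under 0.05, and DESeq2 called none. The GLK1 call in dyw2 was lost in 4 of 20 settings, among them without dyw2 HE replicate 2 (edgeR adjusted p = 0.0550) and without dyw2 HO replicate 1 (0.0601), and the GUN1 call was lost without dyw2 HE replicate 3 (0.0621).

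The plastid-encoded photosystem genes were read as a list of 20 loci. In dyw2 all 20 fell, with a median of -2.28, while 32.8% of all genes tested were called lower. In nuwa edgeR called none of the 20, against 2.18% of all genes tested. There 1 of the 20 had an unadjusted edgeR p under 0.05, DESeq2 called none, and the median was 0.09. Whether the fall in dyw2 was particular to these loci among plastid genes was not tested. Counts on plastid genes made up 30.1% of all counts in dyw2 HO, 61.3% in dyw2 HE, 62.6% in nuwa HO and 62.97% in nuwa HE on average. With organellar genes left out of the fit, all 43 nuclear genes fell in dyw2, with a median of -2.73, and none was called in nuwa, with a median of 0.04. Without both disputed libraries the counts called in dyw2 were 13 of 15 electron transport genes lower, 10 lower and 2 higher of 12 LHC-like genes, 7 of 7 insertion genes lower, 3 lower and 3 higher of 6 regulators, and 20 of 20 plastid loci lower. In nuwa 2 LHC-like genes were then called higher, against 1 with all libraries, and no other gene of these lists.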

How the data were processed

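Libraries were prepared from total RNA with a stranded kit after removal of ribosomal RNA, per the labels' protocols. Each deposited file holds raw counts per gene model from the authors. Reads whose 2 best alignments scored equally were dropped before counting, per the file headers. TopHat2, Bowtie2 and TAIR10 are listed in the submitters' processing notes, with no versions. The deposited files also give a gene length, used for levels per kilobase. Groups were taken from sample titles.

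Counts of the 12 libraries were tested with edgeR 4.0.16 (R 4.3.3): TMM, filterByExpr (minimum count 10, minimum total 15), 1 model of 4 groups with 8 residual degrees of freedom, quasi-likelihood F-test, Benjamini-Hochberg over the 21213 genes kept, calls at 0.05. In counts simulated for dyw2 (20440 genes), 57% of 2-fold and 100% of 4-fold changes were recovered with 7 of 164 calls false, and for nuwa (20424 genes) 48% and 100% with 2 of 150 false. Each simulation changed 100 genes by 2-fold and 100 by 4-fold, up and down in equal number, at a fixed dispersion of 0.05. Far more genes were called in the measured dyw2 libraries, so scaling and false calls under such broad change were not covered. Paralog ratios used counts plus 0.5 and exact permutation (20 arrangements per mutant, 400 for both; scipy 1.17.1). DESeq2 1.42.0 was an alternative. Replicates differed beyond sampling noise (chi-square per degree of freedom 17.4 to 125). Names and positions are from TAIR10.1, whose annotation matched 32835 of 33602 gene models and all 43 genes, and whose chromosome lengths equal those of TAIR10. Coding identity was counted in global alignments (Biopython 1.88). The members, gene lists, tests and alternatives were chosen with earlier results of these data known. Values in every library are given for the gene with most counts in each family, the largest and smallest change in antenna and in core, and the paralogs whose ratio changed most. Of each other list, up to 3 called genes per direction are named, or the 2 with the smallest p. LHCB1.4 and LHCA6 are shown beyond this rule, after their values were seen.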

Additional observations from a re-analysis of the deposited data

Results flagged for a closer look

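The change between homozygous and heterozygous plants differed between dyw2 and nuwa for 43 of the 43 genes by the edgeR contrast of the difference. For the genes with values in every library, the difference between the log2 fold changes, dyw2 minus nuwa, was as follows. Among the LHCII trimer genes it was -4.87 for LHCB2.3, -2.85 for LHCB3, -2.46 for LHCB1.3, -2.18 for LHCB2.2 and -2.06 for LHCB2.1. It was -2.99 for LHCB5 and -2.21 for LHCB4.1 of the minor antenna, and -2.39 for LHCA4. Among photosystem I subunits it was -3.32 for PSAN, -2.91 for PSAK, -2.78 for PSAL, -1.98 for PSAD2 and -1.83 for PSAD1. For PSBR of photosystem II it was -2.79. PSAK had 97.3, 132 and 171 CPM in dyw2 HO, against 894, 1148 and 952 CPM in dyw2 HE, and 1383, 1107 and 945 CPM in nuwa HO, against 1086, 1146 and 1192 CPM in nuwa HE.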

How the results depend on the processing

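The counts of 43 genes lower in dyw2, 0 called in nuwa, 43 with a differing change and 0 called between the heterozygous groups were the same in 19 of 20 alternative settings. These include the fit with the floral score, which cannot tell floral content from genotype. The exception took groups from the genotype field, which exchanges the mutant of 2 libraries: 0 were then called lower in dyw2 and 0 for the difference, with medians of -1.33 in dyw2, -0.38 in nuwa and -0.94 for the difference, and all 43 dyw2 values below 0. With these groups edgeR called 0 of the 21213 genes in dyw2, and 5346 had an unadjusted p under 0.05. The medians over 12 fits that left out 1 library each ran from -2.89 to -2.56 in dyw2 and from -0.14 to 0.12 in nuwa. Of 860 recomputed nuwa values, none called, 130 changed sign. Same-numbered libraries did not deviate together (18 correlations between -0.641 and 0.27, 7 over 0.1, and 0 of 12 libraries closest to their own number), so replicate numbers were not used as pairs. With the replicate number as a block, 43 genes were lower in dyw2, 0 called in nuwa and 43 called for the difference, with medians of -2.74, 0.00 and -2.75. The dyw2 HO libraries, at 13329334 to 24632485 counts, limit the precision of the lowest genes.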
